A study of Mus musculus with 5 samples.

Results

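The actin cytoskeleton and SRF target genes are 38 named mouse genes: the actins, the proteins that bind, bundle, cap or pull on actin filaments, and serum response factor (Srf) with its cofactors. They were set out by name with results of this comparison already known, and those above 0 in 2 or more libraries were retained. That left 37 of the 38 genes, among 23309 genes of the series that meet the same condition. Ctgf did not meet it, with 1 read in 1 library. Of the 37, 33 entered the test, Tagln, Cnn1 and Fhl2 were too low for it, and Myl9 could not be read from the deposited values (given below with the myosin genes).

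RNA was measured in N2a cells, an established mouse neuroblastoma line, after transfection with siRNA. There were 2 libraries of cells given a control siRNA (siCtrl) and 3 of cells given one that targets Ewsr1 (siEwsr1), the gene of an RNA-binding protein of the FET family. Both groups had 50000 cells, 2 pulses of lipid transfection and collection 24 hours after the last pulse, and by the labels differ only in the siRNA. Its concentration is labelled as 100 µM in both. Libraries were stranded, depleted of ribosomal RNA and made from 2 µg of total RNA. One cell line and 1 siRNA reagent per group were labelled, and the labels do not say whether libraries came from separate cultures, so the spread behind each p-value may be technical only. In bulk RNA, fewer cells of a type and less RNA per cell cannot be told apart.

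Actin in cells exists as free monomers and as filaments. The cofactors MRTF-A and MRTF-B (here Mkl1 and Mkl2) bind monomers and are kept out of the nucleus by them. When filaments grow and monomers run short, the cofactors enter the nucleus, join SRF on a DNA element called the CArG box, and drive transcription of actins and actin-binding proteins, so the pool of actin feeds back on its own genes. Some of these genes are shared by all cells (Actb, Actg1, Cfl1, Pfn1), while others (Acta2, Actg2, Tagln, Cnn1) are best known from smooth muscle.

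Because the CArG box is the element through which SRF acts, it was looked for in RefSeq promoter windows around the transcript start (GRCm38.p6), which matched 33 of the 38 genes. Actb, Actg2, Csrp2, Tagln and Ctgf had no window and were not searched. Only exact boxes were counted: CC, then 6 letters that are each A or T, then GG, a form that reads the same way on both strands. An exact box occurred in 7 of the 33 genes (21.2%), against 1.81% of the 27025 genes with a window. The list was drawn up to hold SRF targets, so a larger share than over all genes can follow from that choice alone. The 7 were Actg1, Cnn2, Myl6 (at its other start), Myl9, Vcl, Srf and Fhl2, and Srf held it at 2 places. The windows of 4 genes are printed 5′ to 3′ with the CArG boxes in capitals: the Srf gene itself (chr17:46556113-46556412, minus strand), the cytoplasmic actin Actg1 (chr11:120348446-120348745, minus strand), the calponin Cnn2 (chr10:79988350-79988649, plus strand), which was the member that rose, and the adhesion protein Vcl (chr14:20929148-20929447, plus strand).
Srf: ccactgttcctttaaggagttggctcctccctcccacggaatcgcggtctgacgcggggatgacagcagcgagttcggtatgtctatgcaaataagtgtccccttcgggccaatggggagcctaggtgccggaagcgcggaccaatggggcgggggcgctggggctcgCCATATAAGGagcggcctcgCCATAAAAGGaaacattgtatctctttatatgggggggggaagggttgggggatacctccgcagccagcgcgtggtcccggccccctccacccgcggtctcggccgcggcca
Actg1: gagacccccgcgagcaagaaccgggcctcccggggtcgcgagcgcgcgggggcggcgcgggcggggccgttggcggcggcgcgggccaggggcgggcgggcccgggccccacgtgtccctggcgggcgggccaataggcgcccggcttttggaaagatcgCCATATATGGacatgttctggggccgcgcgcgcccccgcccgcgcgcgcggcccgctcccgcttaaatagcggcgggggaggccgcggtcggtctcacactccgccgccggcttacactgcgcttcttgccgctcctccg
Cnn2: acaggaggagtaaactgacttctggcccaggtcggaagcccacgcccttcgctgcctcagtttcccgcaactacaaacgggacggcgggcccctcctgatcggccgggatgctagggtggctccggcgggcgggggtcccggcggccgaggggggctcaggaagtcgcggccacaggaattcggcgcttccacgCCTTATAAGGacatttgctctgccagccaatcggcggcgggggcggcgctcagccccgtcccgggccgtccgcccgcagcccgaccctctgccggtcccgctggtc
Vcl: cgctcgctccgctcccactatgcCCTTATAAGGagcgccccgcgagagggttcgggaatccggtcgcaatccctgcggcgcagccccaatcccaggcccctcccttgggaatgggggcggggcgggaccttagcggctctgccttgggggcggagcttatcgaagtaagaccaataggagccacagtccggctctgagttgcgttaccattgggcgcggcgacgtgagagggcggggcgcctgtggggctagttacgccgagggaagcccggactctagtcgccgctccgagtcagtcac
In the Srf window the boxes began at -82 and -62 from the transcript start. The Actg1 box began at -90, the Cnn2 box at -56 and the Vcl box at -227, as the map of CArG boxes shows. Cnn2 and Vcl carried the same 10 letters. A match describes the letters in the window and is not evidence of binding, and no match says only that these exact letters are not in it. Boxes 1 letter off the exact form, counted after the exact search had been seen, occurred in 10 of the 33 genes (30.3%) against 22.5% of all genes with a window. The Acta2 window, which held no exact box, held such boxes at -84 and -34.

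**Figure D1:**
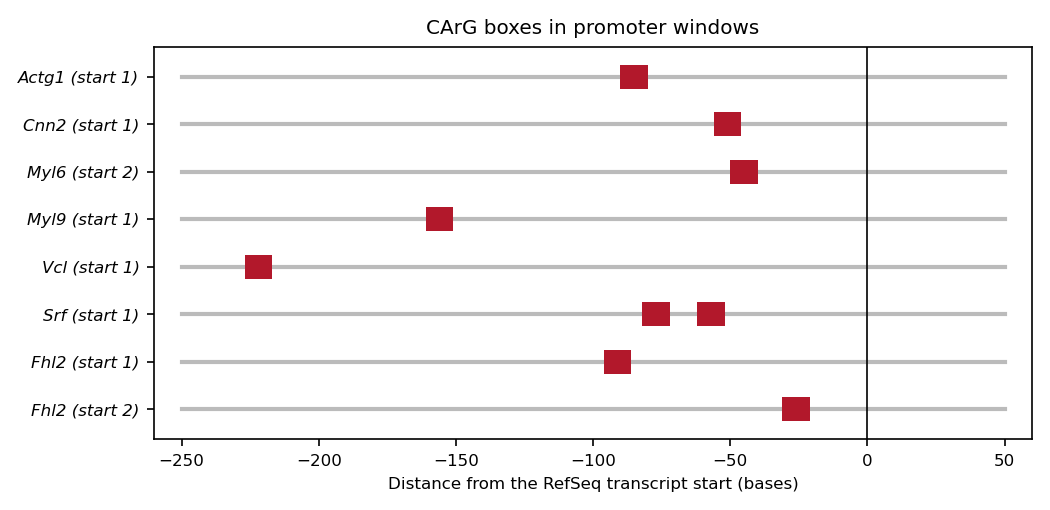
Each grey line is a RefSeq promoter window of a gene that holds an exact CArG box, drawn by distance in bases from the transcript start (vertical line), and each red block is a box. The boxes of Srf at -82 and -62, of Actg1 at -90 and of Cnn2 at -56 lay close upstream of the start, and the Vcl box at -227 lay near the far end of its window.

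Ewsr1 itself stood at 71.7 and 72.3 RPKM (reads scaled to exon length and library total) in siCtrl and at 35.7, 36.3 and 37.6 in siEwsr1, a log2 fold change of -0.96 (SE 0.07, limma adjusted p = 0.0201). The way decimal points were restored had been revised after the first setting left Ewsr1 out, so its level is not an independent check of the labels. The libraries held 15045774 to 21339459 counted reads. siEwsr1 replicate 3 stood nearer to the controls than its partners: on the first principal component, which carried 45.3% of the variance, it lay at -0.10, against 16.5 and 33.9 for the other siEwsr1 libraries and -21.3 and -29.0 for siCtrl. All 15 neuroblastoma markers were above 0 and 1 of them, Isl1, passed the test described below, higher in siEwsr1. Their fold changes were above 0 in 11 and below 0 in 4, with a median of 0.21. The summed level of these markers was 1070 and 1085 RPKM in siCtrl and 1142 to 1256 in siEwsr1. Of 12 fibroblast and mural markers 9 were above 0, with Col3a1, Lum and Thy1 at 0, and their summed level, nearly all from Fbln1, was 34.5 RPKM in both siCtrl libraries and 24.1 to 30.8 in siEwsr1. Of 10 muscle markers 7 were above 0, with Lmod1, Myod1 and Myog at 0, and their summed level was 2.67 and 3.13 in siCtrl and 1.99 to 2.40 in siEwsr1. The part of these differences in the results below was not tested.

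Among the 33 tested genes, the smooth-muscle actin Acta2 and the LIM protein Csrp1 fell and the calponin Cnn2 rose, with log2 fold changes of -1.56, -1.44 and 0.98, and 30 did not pass the test. The test was limma on log2(RPKM + 0.1), called at an adjusted p under 0.05 over all 14920 genes tested, so each fold change is on that scale and understates changes of low genes. Over all genes tested, 148 were called lower (0.992%) and 114 higher (0.764%), or 1.76% in either direction. Fold changes of the 33 were below 0 in 25 and above 0 in 8, with a median of -0.18, against -0.01 over all genes tested. In 17 of them every siEwsr1 library lay below every siCtrl library, against 21.3% of all genes tested, and in 4 every siEwsr1 library lay above, against 18.6%. An unadjusted p under 0.05 was found for 15 of the 33, against 20.1% of all genes tested. Since the genes were proposed with these results known, the counts describe them and carry no test of their own.

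How many genes passed depended on the fit. With the variance trend of limma drawn along read number in place of the mean level, an alternative chosen after seeing the data, 6 members were lower (Actb, Acta2, Csrp1, Vim, Tpm1 and Tpm2) and 2 higher (Cnn2 and Flna), beside 409 lower and 355 higher of all genes. Without siEwsr1 replicate 3, 10 were lower (these 6 with Actg1, Myl6, Zyx and Srf) and 2 higher (Cnn2 and Flna), beside 936 and 989 of all genes. In limma no member and no other gene of the series passed when replicate 1 of siEwsr1 was left out. An unadjusted limma p under 0.05 was then found for 10 of the 33 members, beside 2053 of all 14697 genes tested in that fit. No gene passed either when siCtrl replicate 1 or siCtrl replicate 2 was left out. Leaving out a siCtrl library leaves 1 control, which is then assumed to vary like the siEwsr1 libraries. Acta2, Csrp1 and Cnn2 kept the sign of their fold changes in every one of these fits. Their groups did not overlap, so leaving out 1 library or moving the trend could hardly turn these signs, and their constancy is no added support.

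**Figure D2:**
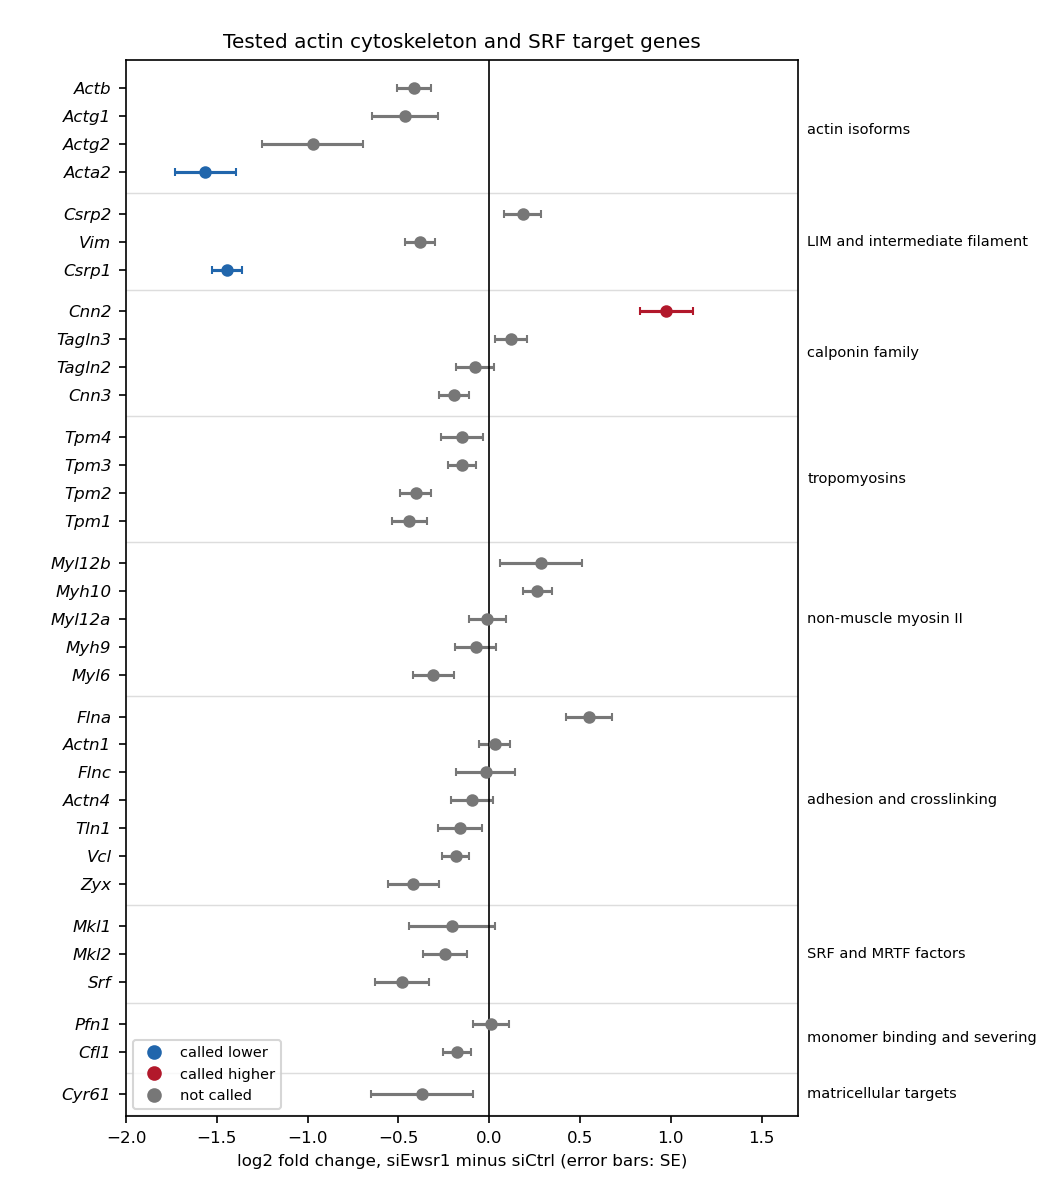
Log2 fold change (siEwsr1 minus siCtrl, horizontal axis) of the 33 tested genes, grouped by role, with bars for the standard error. Acta2 (-1.56) and Csrp1 (-1.44) lie far left in blue and Cnn2 (0.98) far right in red, while grey genes, which did not pass the test, lie mostly between -0.5 and 0.3.

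The 4 actins had a median fold change of -0.72, and 1 of them, Acta2, passed the test. Actb (chr5:142903115-142906754, GRCm38, minus strand), the main cytoplasmic actin, was the most abundant gene of the module, with 2116 and 2037 RPKM in siCtrl and 1503, 1494 and 1631 in siEwsr1. The groups did not overlap. Its log2 fold change was -0.41 (SE 0.09) with a limma adjusted p of 0.0810, and 0.0191 with the trend on read number. Actg1 (chr11:120345690-120348542, minus strand), the other cytoplasmic actin, stood at 562 and 580 RPKM in siCtrl and 395, 328 and 531 in siEwsr1. Here siEwsr1 replicate 3 lay close under the controls and the others well below them, and the fold change of -0.46 (SE 0.18) had a limma adjusted p of 0.226. It was -0.29 without siEwsr1 replicate 2 (adjusted p = 0.343) and -0.63 without siEwsr1 replicate 3 (adjusted p = 0.0239). How reads shared between Actb, Actg1 and their processed pseudogenes were assigned is not given in the sources used here, so the level of each is uncertain.

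Acta2 (chr19:34241090-34255590, minus strand), the actin of smooth muscle and myofibroblasts, stood at 2.88 and 2.63 RPKM in siCtrl (81 reads in each library) and at 0.784, 0.921 and 0.867 in siEwsr1 (21, 35 and 27 reads). All siEwsr1 libraries lay under 1 RPKM and both controls above 2. The gene fell, with a log2 fold change of -1.56 (95% interval -1.97 to -1.16, limma adjusted p = 0.0249). The size depended on the pseudocount: at 0.5 the fold change of Acta2 was -1.25 and at 1 it was -1.01, called in both, while that of Csrp1 was -1.43 and -1.41. With no filter on low values Acta2 did not pass (limma adjusted p = 0.0615). The siEwsr1 values, being under 1, were intact in the deposited files and only the control values needed their decimal point restored, on an exonic length solved from the values. Actg2 (chr6:83512905-83536265, minus strand), the enteric smooth-muscle actin, stood at 1.22 and 0.742 RPKM in siCtrl and 0.512, 0.391 and 0.404 in siEwsr1. The groups did not overlap, but the controls differed from each other by more than the nearer of them differed from siEwsr1 replicate 1, on 11 to 30 reads a library. Its fold change was -0.97 (SE 0.28, limma adjusted p = 0.129), and it ranged from -0.45 with a pseudocount of 1 to -1.29 without siCtrl replicate 2.

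The scarce actins had the larger fold changes with the pseudocount of 0.1, but with 1 that of Actg2 (-0.45) was no larger than that of Actg1 (-0.46), and the difference between actins was not tested. The 4 actins summed to 2682 and 2621 RPKM in siCtrl and 1900, 1823 and 2163 in siEwsr1. Acta2 and Actg2 made up 0.153% and 0.129% of that sum in siCtrl and 0.0682%, 0.0720% and 0.0588% in siEwsr1, so the groups did not overlap in either the sum or the share. Actb over Actg1 was 3.77 and 3.51 in siCtrl and 3.80, 4.56 and 3.07 in siEwsr1, where the groups overlapped. Reads of the 37 genes with a reading made up 1.36% and 1.37% of counted reads in siCtrl and 1.11%, 1.07% and 1.24% in siEwsr1, and Actb alone 0.567% and 0.546% against 0.403%, 0.400% and 0.437%.

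**Figure D3:**
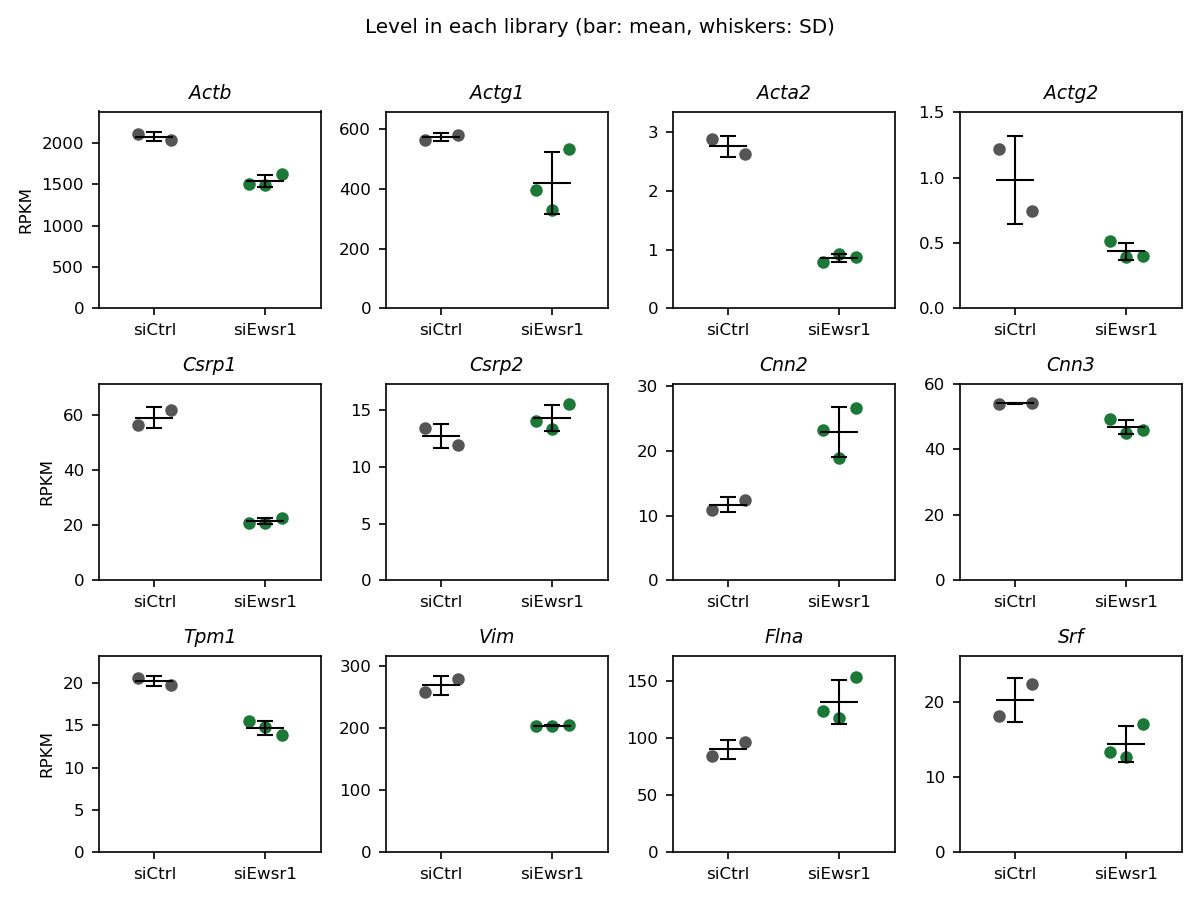
RPKM on linear axes from 0 in each library for 12 members, with siCtrl in grey and siEwsr1 in green, the mean as a bar and the SD as whiskers. Acta2 and Csrp1 show both controls far above the siEwsr1 libraries, Cnn2 and Flna the reverse, and in Actg1 and Srf siEwsr1 replicate 3 (the point farthest right) lies nearest to the controls.

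Csrp1 (chr1:135720061-135752232, plus strand) encodes a LIM-domain protein that binds alpha-actinin and zyxin and is a known SRF target in smooth muscle. It stood at 56.5 and 61.8 RPKM in siCtrl and at 20.7, 21.035 and 22.6 in siEwsr1. The controls lay well apart from all siEwsr1 libraries, which were close to each other. Csrp1 fell, with a log2 fold change of -1.44 (95% interval -1.64 to -1.24, limma adjusted p = 0.0121). Its paralog Csrp2 stood at 13.4 and 11.9 RPKM in siCtrl and 14.0, 13.3 and 15.6 in siEwsr1, with overlapping groups and a fold change of 0.18 (SE 0.10, limma adjusted p = 0.355). The Csrp1 to Csrp2 ratio was 4.20 and 5.17 in siCtrl and 1.48, 1.58 and 1.46 in siEwsr1, lower in every siEwsr1 library. Vim, the intermediate filament protein of mesenchymal and many cultured cells, stood at 258 and 280 RPKM in siCtrl and 204, 204 and 205 in siEwsr1. It did not pass the test (-0.38, SE 0.08, limma adjusted p = 0.0762), though the groups did not overlap. Fhl2, another LIM protein and SRF cofactor, had 0 to 2 reads a library.

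Calponins and transgelins are small actin-binding proteins that steady filaments and restrain myosin. Cnn2 (chr10:79988584-79996062, plus strand), the non-muscle calponin, stood at 10.8 and 12.5 RPKM in siCtrl and at 23.3, 18.9 and 26.6 in siEwsr1. All siEwsr1 libraries lay above both controls, with the widest spread in siEwsr1. Cnn2 rose, with a log2 fold change of 0.98 (95% interval 0.63 to 1.32, limma adjusted p = 0.0374). The limma adjusted p was 0.0553 with a replicate block and 0.0835 with no filter on low values. In 1 library Cnn2 was read 1 decimal place above its lowest whole reading, at odds of 1423. Ewsr1 (odds of 164), Csrp2 (248), Actg1 (483), Actb (687) and other members were also read above the lowest position in 1 or more libraries. Its relative Cnn3 stood at 53.9 and 54.1 RPKM in siCtrl and 49.3, 45.0 and 46.0 in siEwsr1 (-0.19, SE 0.08, limma adjusted p = 0.256). Cnn2 over Cnn3 was 0.201 and 0.231 in siCtrl and 0.472, 0.419 and 0.579 in siEwsr1, so Cnn2 was the scarcer of the pair throughout. The smooth-muscle members of the family were close to absent: Cnn1 had 0 to 3 reads and Tagln 0 to 4 reads a library. Tagln2, the form of most other cells, averaged 79.8 ± 2.69 RPKM (SD, n = 2) in siCtrl and 75.0 ± 8.86 (SD, n = 3) in siEwsr1. Tagln3, the neuronal form, averaged 20.2 ± 0.109 and 21.8 ± 1.67, and neither passed the test.

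Fold changes of both signs occurred with and without an exact CArG box. An exact box lay in the window of 5 tested genes, of which Srf, Actg1, Myl6 and Vcl had fold changes below 0 and Cnn2 above, with a median of -0.31. The other 25 tested genes with a window, Acta2 and Csrp1 among them, had 19 below 0 and 6 above, with a median of -0.15. GGAATG, the core letters bound by TEAD factors, read on both strands, occurred in 12 of the 33 genes with a window (36.4%) against 16.6% of all genes with one. Of the 12, all of which were tested, 9 were below 0 and 3 above, with a median of -0.09.

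A pair of 7-base words had been picked from these same data as frequent in the 3′ UTRs of the genes that changed most, so their presence here is a description. GCAATTT was found in the 3′ UTR of 31 of 120 genes called lower (25.8%) and 8.26% of genes not called, and TCACTGC in 53 of 103 genes called higher (51.5%) and 14.0% of genes not called. Of the 33 tested members with an annotated 3′ UTR, Csrp1, Mkl2 and Tpm3 carried GCAATTT (9.09%), with fold changes of -1.44, -0.24 and -0.15. TCACTGC was carried by 7 (21.2%): Cnn2, Flna, Myh10, Mkl1, Myh9, Vcl and Zyx, with fold changes from -0.42 to 0.98 and a median of -0.08. The surroundings of the word in Csrp1, Cnn2 and Flna, the genes with the largest fall and the largest increases among its carriers, are printed from GENCODE M21 transcripts, with the word in capitals.
Csrp1: gatcaataaaGCAATTTagaactgaa
Cnn2: ggcctggaacTCACTGCaatcctcctg
Flna: tggccgctctTCACTGCattcgccctt
In Csrp1 the word begins at base 1097 of a 3′ UTR of 1112 bases, directly after the letters AATAAA of a polyadenylation signal. In Cnn2 it begins at base 118 of 1448 and in Flna at base 143 of 329. Acta2 carried neither word. The part of these words in the fold changes was not tested.

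Tropomyosins lie along actin filaments and decide which proteins can reach them. All 4 tested forms had every siEwsr1 library below both controls, as had 21.3% of all genes tested. None passed the test, and their median fold change was -0.28. Tpm1 stood at 20.6 and 19.7 RPKM in siCtrl and 15.5, 14.8 and 13.8 in siEwsr1 (-0.44, SE 0.09, limma adjusted p = 0.0769). Tpm2 stood at 13.2 and 13.7 in siCtrl and 9.89, 9.65 and 10.5 in siEwsr1 (-0.41, SE 0.08, limma adjusted p = 0.0706). Both were called lower with the trend on read number, at adjusted p of 0.0282 and 0.0483. The more abundant Tpm4 averaged 291 ± 5.92 RPKM (SD, n = 2) in siCtrl and 260 ± 26.4 (SD, n = 3) in siEwsr1, and Tpm3 34.3 ± 1.03 and 30.5 ± 0.281. Tpm1 and Tpm2 together gave 9.29% and 9.46% of tropomyosin RPKM in siCtrl and 7.81%, 7.28% and 8.52% in siEwsr1, without overlap. Tpm3 has processed pseudogenes, so its level is uncertain.

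Non-muscle myosin II, the motor that pulls on filaments, is built from heavy chains (Myh9, Myh10) and light chains (Myl6, and the regulatory Myl9, Myl12a and Myl12b). No tested member passed. Myh10, the heavy chain typical of neurons, averaged 21.3 ± 0.50 RPKM in siCtrl (SD, n = 2) and 25.4 ± 1.45 in siEwsr1 (SD, n = 3), without overlap (0.26, SE 0.08, limma adjusted p = 0.145). Myh9, the other heavy chain, averaged 43.3 ± 1.13 and 40.9 ± 5.72, with overlap. Their ratio, Myh10 over Myh9, was 0.494 and 0.492 in siCtrl and 0.641, 0.665 and 0.570 in siEwsr1, higher in every siEwsr1 library. The essential light chain Myl6 stood at 212 and 226 RPKM in siCtrl and 175, 154 and 198 in siEwsr1 (-0.31, SE 0.11, limma adjusted p = 0.202). Myl12a averaged 23.7 ± 0.581 and 23.3 ± 1.85, and Myl12b 1.26 ± 0.284 and 1.54 ± 0.269, and reads of this near-identical pair may have been split between them. Myl12b is also listed under a shorter record with 5 to 26 reads a library.

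Myl9, the regulatory light chain of smooth muscle and many other cells, could not be placed. The lowest reading in siCtrl was 24.5 and 27.0 RPKM, and the same digits 1 place up, as 244.5 and 269.9, also give whole reads. The digits of the siEwsr1 libraries likewise give whole reads either as 3.66, 4.72 and 4.83 RPKM or, with the decimal point 1 place to the right, as 36.6, 47.2 and 48.3. With siCtrl at its lowest reading, the ratio of the group means would be -2.55 on the log2 scale under the first reading and 0.78 under the second. The setting used here preferred the first reading, a fall, but only at odds of 14.5. That is under the minimum of 20, so Myl9 is in no count of tested genes, fold changes or calls. Under a wider setting of the reading, tried earlier, it was read as the second and called higher (limma adjusted p = 0.0462).

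Crosslinkers and adhesion proteins join filaments to each other and to integrins. Flna (chrX:74223461-74249820, minus strand), which crosslinks filaments into networks, stood at 84.2 and 96.2 RPKM in siCtrl and at 124, 117 and 153 in siEwsr1. Every siEwsr1 library lay above both controls, and the fold change was 0.55 (SE 0.13) with a limma adjusted p of 0.0859, and 0.0241 with the trend on read number. Its muscle-enriched relative Flnc averaged 2.10 ± 0.0392 RPKM (SD, n = 2) and 2.07 ± 0.322 (SD, n = 3), with overlapping groups. The focal adhesion protein Zyx stood at 7.12 and 7.11 RPKM in siCtrl and 4.54, 5.06 and 6.30 in siEwsr1 (-0.42, SE 0.14, limma adjusted p = 0.177). Vcl, which links talin to actin, averaged 24.6 ± 0.327 and 21.4 ± 0.427, without overlap (-0.19, SE 0.08, limma adjusted p = 0.241). Talin 1 (Tln1), which binds integrin tails, averaged 11.4 ± 0.730 and 10.2 ± 1.42. The alpha-actinins, which bundle filaments, had overlapping groups: Actn1 averaged 19.4 ± 1.09 and 19.7 ± 0.974, and Actn4 17.2 ± 2.57 and 15.9 ± 1.23. None of these 7 genes passed the test.

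The 3 factors that respond to the actin pool had lower mean levels in siEwsr1, and none passed the test. Srf (chr17:46548329-46556175, minus strand) stood at 18.2 and 22.3 RPKM in siCtrl and at 13.4, 12.7 and 17.1 in siEwsr1. The groups did not overlap, but siEwsr1 replicate 3 lay close to the lower control. The fold change was -0.48 (SE 0.15, limma adjusted p = 0.146), and -0.60 without siEwsr1 replicate 3 (adjusted p = 0.0268). Without another single library it was -0.33 to -0.61 and did not pass, with adjusted p from 0.257 to 0.659. Mkl1, which encodes MRTF-A, stood at 1.36 and 1.61 RPKM in siCtrl and 1.22, 0.981 and 1.65 in siEwsr1, and the highest library of all was a siEwsr1 library (-0.21, SE 0.23, limma adjusted p = 0.659). Mkl2, which encodes MRTF-B, stood at 3.17 and 3.47 RPKM in siCtrl and 2.65, 2.69 and 2.94 in siEwsr1, without overlap (-0.24, SE 0.12, limma adjusted p = 0.314). RPKM put Srf above both cofactors in every library.

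Cofilin (Cfl1), which severs filaments, averaged 200 ± 1.12 RPKM in siCtrl (SD, n = 2) and 175 ± 4.78 in siEwsr1 (SD, n = 3), without overlap (-0.18, SE 0.08, limma adjusted p = 0.259). Profilin (Pfn1), which feeds monomers to growing filaments, averaged 64.7 ± 0.357 and 64.8 ± 7.22 (0.01, 95% interval -0.23 to 0.25). Neither passed the test. Both have processed pseudogenes, and the decimal position of Cfl1 was the least certain among the 33 tested members, with odds of 26.7. Both siCtrl libraries and siEwsr1 replicate 1 were read 1 place above their lowest whole reading, on an exonic length solved from the values. The Cfl1 difference between the groups depends on that reading. Of the secreted matricellular proteins, which answer to both SRF and the YAP-TEAD factors, Cyr61 stood at 0.503 and 0.801 RPKM in siCtrl and 0.560, 0.371 and 0.482 in siEwsr1, with overlap (-0.37, SE 0.28, limma adjusted p = 0.499). Without single libraries its fold change was -0.64 to -0.07. Ctgf had 0 reads in siCtrl replicate 1 and in every siEwsr1 library, and 1 read in siCtrl replicate 2.

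**Figure D4:**
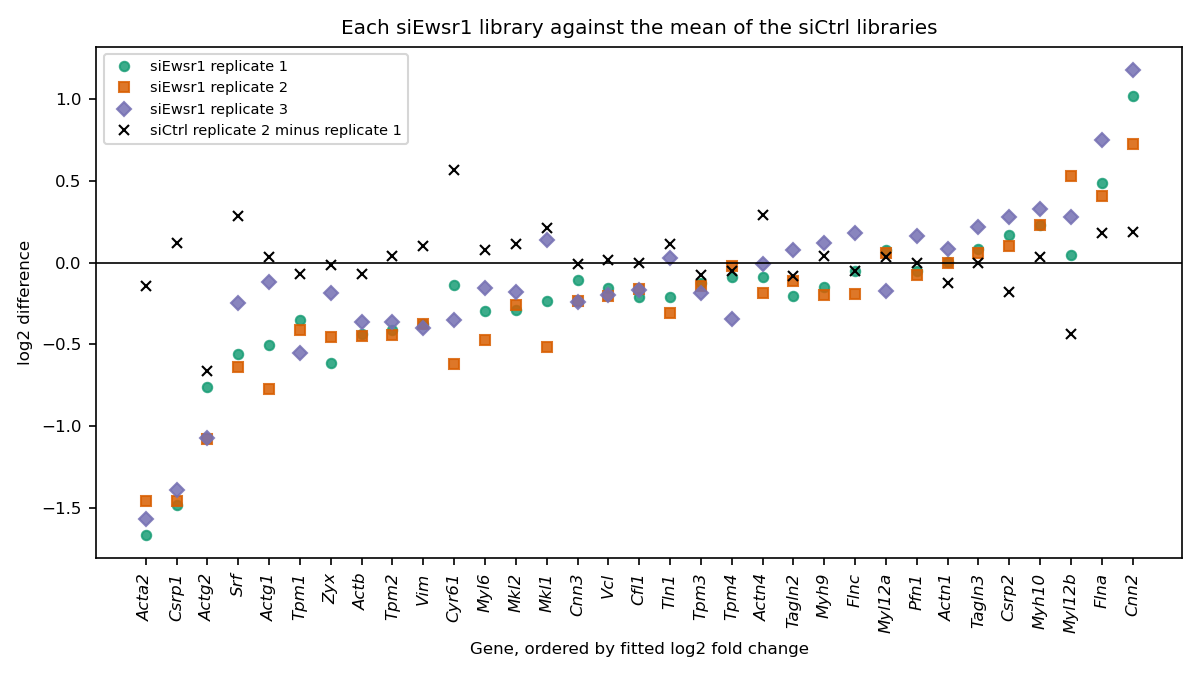
For each tested gene, ordered by fitted fold change, the log2 difference of each siEwsr1 library from the mean of the siCtrl libraries (coloured points) and the difference between the siCtrl libraries (crosses). The siEwsr1 points of Acta2, Csrp1 and Cnn2 lie far beyond the crosses, and most genes in the middle have points within 0.3 of 0.

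The siEwsr1 libraries had similar medians over the module and differed in single genes. Median differences of the 33 genes from the control mean were -0.16, -0.20 and -0.17 in replicates 1, 2 and 3, and the siCtrl libraries differed by a median of 0.02. Among the 17 genes with all siEwsr1 libraries below the controls, replicate 3 was the nearest to the controls in 11 (64.7%), as it was in 49.4% of such genes over the series. Actg1, Srf, Zyx and Myl6 were of this kind, and all 4 were called lower without it. Among the 4 genes with all siEwsr1 libraries above the controls (Cnn2, Flna, Myh10 and Tagln3), replicate 3 was the nearest in 0 and replicate 2 in 3 (75%), against 47.3% and 26.1% of such genes over the series. Leaving out replicate 3 left the fold change of Cnn2 at 0.88 and of Flna at 0.45.

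The wider actin pathway was read from 8 lists of other genes, in which 1 gene passed the test. Of 20 ternary-complex immediate early genes, which SRF drives with a different class of cofactors, 16 were tested, and Ier3 rose from 13.9 ± 0.240 to 21.1 ± 2.45 RPKM, a fold change of 0.61 (limma adjusted p = 0.0473). No gene passed among 18 tested of the Arp2/3 complex and its activators, 20 of filament turnover, 16 of bundling and membrane linkage, 18 of focal adhesion, 11 myosins and light-chain kinases, 10 YAP-TEAD genes and 10 other SRF-MRTF targets. Unadjusted p-values under 0.05 in limma were found in 2, 4, 1, 6, 3, 0 and 2 of these and in 6 of the 16 ternary-complex genes, against 20.1% of all genes tested. The call of Ier3 was lost in several of the other fits.

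List medians ranged from -0.24 for the other SRF-MRTF targets, with 9 of 10 fold changes below 0, to 0.09 for the myosins and light-chain kinases. The Arp2/3 complex, which nucleates branched filaments, had a median of 0.06 with 13 of 18 above 0. Focal adhesion genes had a median of -0.15 with 13 of 18 below 0. Filament turnover genes had a median of -0.11, YAP-TEAD genes -0.16, bundling genes -0.06 and ternary-complex genes -0.07. These stand beside -0.18 for the 33 members and -0.01 for all genes tested, and the differences between lists were not tested.

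**Figure D5:**
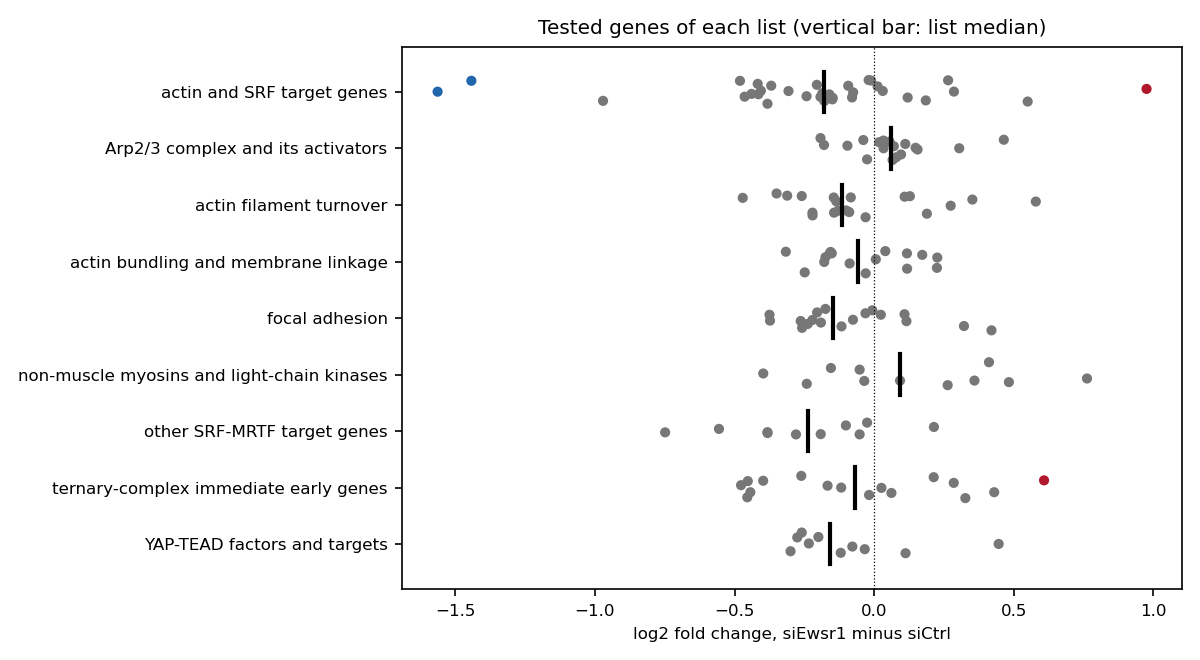
Each point is a tested gene at its log2 fold change (siEwsr1 minus siCtrl) and each vertical bar the list's median, with genes called lower in blue, called higher in red and not called in grey. In the module (top line) Acta2 lies at -1.56 and Cnn2 at 0.98, and the medians of all lists lie between -0.24 and 0.09.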

How the data were processed

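Total RNA was measured in 5 libraries of N2a cells, grouped by their titles. The tools named per the submitters' processing notes are STAR 2.5.2b, featureCounts 1.5.1 and edgeR, with GRCm38 as the build. For the annotation, the strand setting and multi-mapping reads, nothing is given in the sources used. The authors deposited 1 value per gene and library that behaves as RPKM, in which every value of 1 or more lost its decimal point (unit recorded as other).

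Decimal points were restored, without group labels, from the condition that value, exonic length (GENCODE M21, 54809 of 54838 identifiers matched) and library total give whole reads within 1e-06, preferring the lowest position and closeness between libraries. Of 27255 genes above 0, 212 were left out for odds under 20. A change near 1 decimal place can be misread. The weighting of closeness was revised after results had been seen, because the first setting left Ewsr1 out and the next misread strong changes in tests on made-up data. The present setting allows 2 expression levels.

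Values were scaled by a trimmed mean, and limma 3.58.1 (R 4.3.3, trend and robust) was run on log2(RPKM + 0.1) over 14920 genes with 10 reads in 2 libraries at the median library size, with Benjamini-Hochberg adjustment. The fit on the mean level was kept as first written, with the result of the fit on read number in view. Depth was 15045774 to 21339459 counted reads a library. All members are named. Called members, actins, SRF-MRTF factors and matricellular genes are given by library, and of the pathway lists only called genes are named. A pathway list and a marker gene are not reported here. Members and lists were chosen with earlier results of these data known. Libraries with the same replicate number showed no clear pairing (correlations of deviations 0.03 and -0.12). With 2 controls, whose deviations mirror each other, these values cannot exclude it. RefSeq promoter windows (GRCm38.p6) and GENCODE M21 3′ UTRs were searched for short words. Protein sequences were not used here. Alternatives are given in the closing section.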

Additional observations from a re-analysis of the deposited data

How the results depend on the processing

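The main counts were 2 members lower and 1 higher, 148 and 114 of all genes, and 1 pathway gene, with a member median of -0.18. With no filter on low values the counts were 1 and 0, 3 and 0, and 0, and with a filter of 50 reads 4 and 2, 333 and 262, and 3. Limma without trend and robust moderation called 0 members, 0 genes lower, 0 higher and 0 pathway genes, with 2778 genes at an unadjusted p under 0.05. With genes at the lowest decimal positions only, 20 of the 33 members were tested, Cnn2 not among them, 0 were higher, 78 and 51 genes and 0 pathway genes were called, and the median was -0.22. It was -0.15 with a pseudocount of 1. With no scaling beyond the library total 0 pathway genes were called. The trend on read number, chosen after seeing the data, gave 6 and 2 members, 409 and 355 genes and 6 pathway genes. The decimal settings tried earlier, also compared after seeing the data, gave 0 members higher with a scale of 0.06 and 3 degrees of freedom, where Cnn2 and Ewsr1 were left out, and 2 higher with 0.12 and 10, where Myl9 joined Cnn2. Leaving out 1 library gave 0 to 10 members lower, 0 to 2 higher, 0 to 936 genes lower, 0 to 989 higher and 0 to 15 pathway genes. With the replicate number as a block, 0 members were higher and 0 pathway genes were called, and no other member call changed. The causes of these differences were not tested.

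Signs turned only in genes near 0. Myl12a stood at 0.00169 under median-of-ratios scaling, 0.0691 under the replicate block and -0.0374 to 0.0721 without single libraries. Pfn1 stood at -0.0031 with no scaling beyond the library total, -0.0647 under the block and -0.0618 to 0.0722 without single libraries. The same ranges were -0.119 to 0.0810 for Flnc, -0.0207 to 0.106 for Actn1, -0.227 to 0.0642 for Actn4, -0.156 to 0.000776 for Tagln2 and -0.171 to 0.00213 for Myh9. Among other uncalled members, leaving out 1 library gave -0.37 to -0.03 for Mkl1, 0.08 to 0.52 for Myl12b, 0.11 to 0.29 for Csrp2, -0.20 to -0.05 for Tpm4 and -0.25 to -0.07 for Tln1. Scarce genes limit the depth: Actg2 rests on 11 to 30 reads a library and Cyr61 on 16 to 28.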
